A study of Danio rerio with 6 samples.

Results

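The circadian clock genes described here are 39 gene identifiers of the 24462 in the deposited table. They were chosen by name from 43 member names of the clock's core loop and its linked loops, matched to a table of zebrafish gene symbols without regard to case. A symbol in capitals that lacks a paralogue letter was counted, so BMAL1, CLOCK, PER1 and CRY1 each stand for 2 identifiers, and which of the paralogues a or b each identifier is was not settled. Of the member names, 4 had no entry of their own. The names arntl1a, arntl1b and arntl2 are synonyms of bmal genes that were found, and nfil3-2 is not analysed here.

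Whole zebrafish embryos of the Tropical 5D wild-type line were either exposed from 8 h after fertilization to the fluorinated chemical perfluorobutane sulfonamide (FBSA) at 47 µM, or held without it (0 µM). Both groups were dechorionated at 4 h, kept in plate wells with 0.5% methanol and harvested at 48 h, so the comparison is between FBSA in solvent and solvent alone. Each group had 3 libraries, each from a pool of 10 embryos, sequenced from the 3′ ends of transcripts. The labels give neither the clutch behind each pool nor the light regime and hour of day at harvest. P-values therefore measure the spread between these pools.

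The clock of vertebrate cells is a transcriptional loop. The proteins CLOCK and BMAL pair and switch on genes that carry E-box elements, among them the period and cryptochrome genes, whose products then block CLOCK and BMAL. A second loop sets the orphan receptors REV-ERB, which repress BMAL genes, against the ROR receptors, which activate them. A further loop sets the activators DBP, TEF and HLF against the repressor NFIL3 at D-box elements. In zebrafish most tissues hold clocks that light can set directly, and these start to run during embryonic development.

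The FBSA libraries held 27719471 to 33356411 reads in genes and the controls 23906021 to 32108756. Values below are normalized counts, which are reads divided by 1 size factor per library. A 3′ library takes reads from the end of each transcript, so levels of different genes are set side by side with no correction for length. On the leading principal component of all genes tested, the FBSA libraries lay at 25.0, 54.0 and 2.51. The controls lay at −2.53, −65.5 and −13.4, each under every FBSA library. FBSA replicate 2 and control replicate 2 were thus the ends of a component that also parts the groups. Counts that lead the results are also given without both, which can by itself make group differences smaller. Skeletal muscle, neuron, lens, blood and skin markers were all detected.

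No clock gene passed the test between FBSA and control. Of the 39 genes, 34 had at least 10 normalized counts in 3 libraries and were tested with limma on log2(normalized count + 1). With Benjamini-Hochberg adjustment over all 16890 genes tested, 0 of the 34 had an adjusted p under 0.05. Over all genes 0.568% rose, 0.136% fell and 0.705% passed in either direction. At so low a share, 0 of 34 does not set the clock genes apart from other genes. The smallest adjusted p was 0.0968, for RORA. At an unadjusted p under 0.05, 5 clock genes had higher values with FBSA (nfil3-6, nr1d2a, dbpb, BHLHE40 and tefa), beside 7.34% of all genes. Lower values at that level were found for 2 (RORA and cry3b), beside 6.25% of all genes. The 7 genes are 20.6% of those tested, beside 13.6% of all genes. Without both libraries numbered 2 there were 3 of 34, nfil3-6, RORA and cry3b, beside 11.3% of all genes. The median log2 fold change was 0.03 over the 34 genes and −0.00090 over all genes. Of the 34 values 20 were positive, or 58.8%, beside 49.8% of all genes, and 14 were negative. Groups did not overlap in 8 of the 34 genes, or 23.5%, beside 19.9% of all genes. FBSA was higher in 6 of them, beside 10.0% of all genes, and lower in 2, beside 9.91%. A fold change here is a difference of group means of log2(normalized count + 1), and intervals are 95% limma intervals with no adjustment. The added 1 shrinks the differences of genes with few reads. A single library near 0 can still take the value past the ratio of group means. PER1 (ENSDARG00000056885) came out at 3.14-fold, with mean normalized counts of 26.5 with FBSA and 11.1 in control.

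**Figure D1:**
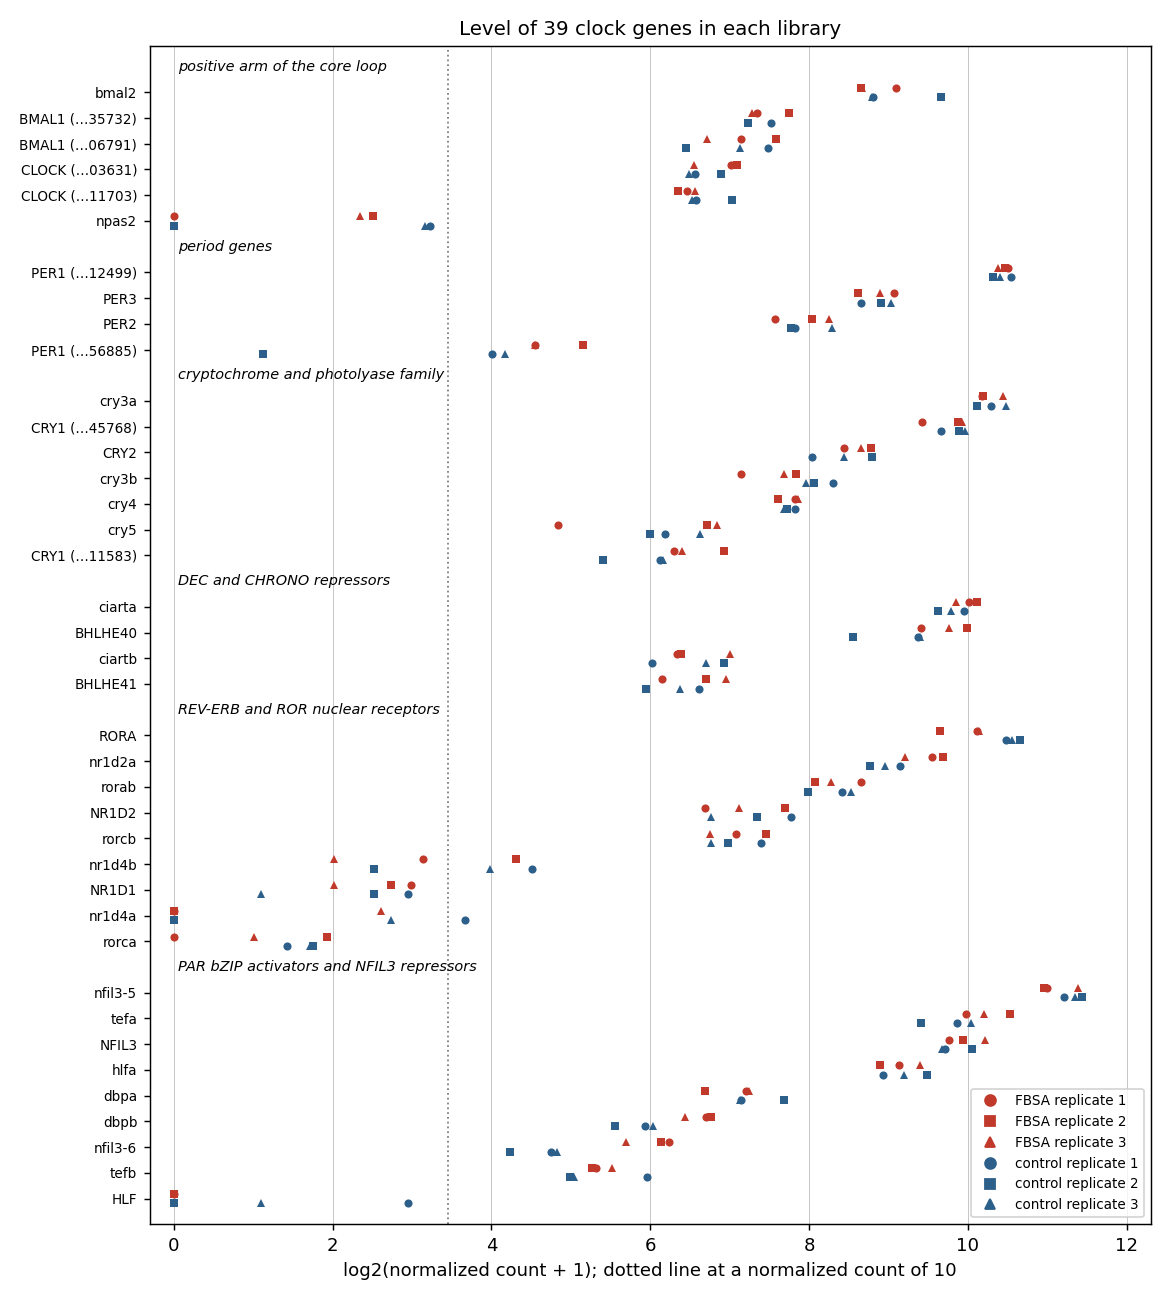
Levels of the 39 clock genes in each library, as log2(normalized count + 1), with FBSA libraries in red above controls in blue and genes grouped by role. The genes span from under 3 normalized counts on average (HLF, rorca) to a mean of 2408 (nfil3-5), and for most genes the colours overlap.

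The positive arm was present at moderate levels. bmal2 (ENSDARG00000041381), which encodes a partner of CLOCK, was the most abundant of these genes, with 546, 401 and 404 normalized counts in the FBSA libraries, against 446, 809 and 442 in the controls. Control replicate 2 alone was high, and the groups overlapped. The log2 fold change was −0.28 ± 0.23 SE (limma adjusted p = 0.621), and without control replicate 2 it was 0.01. BMAL1 is the symbol of ENSDARG00000035732 and ENSDARG00000006791, whose means were 176 ± 32.1 and 145 ± 44.1 normalized counts with FBSA, against 160 ± 18.6 and 135 ± 46.1 in control (SD, n = 3 each). CLOCK (ENSDARG00000003631) had 129, 135 and 92.5 normalized counts with FBSA, against 93.9, 117 and 88.6 in control. Its namesake ENSDARG00000011703 had 87.4, 80.7 and 93.5 with FBSA, against 94.7, 129 and 90.9 in control. Both members of each of these pairs had overlapping groups. The CLOCK relative npas2 stayed under the filter in every library, with at most 4.69 normalized counts in FBSA libraries and 8.38 in controls.

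The period genes, whose products form the repressor complex with cryptochromes, had overlapping groups in 3 of 4 cases. The 1 case without overlap stands beside 19.9% of all genes. PER1 (ENSDARG00000012499) had 1452, 1411 and 1336 normalized counts in the FBSA libraries, against 1487, 1273 and 1353 in the controls. All 6 values lay close together, and its spread within groups, an SD of 0.091 on the log2 scale, was the smallest of the 34 genes. The log2 fold change was 0.03 ± 0.11 SE (limma adjusted p = 0.925), with an interval from 0.862-fold to 1.21-fold. PER2 (ENSDARG00000034503), which light induces in zebrafish, had 190, 261 and 305 normalized counts with FBSA, against 226, 218 and 311 in control. The groups covered nearly the same range, with a log2 fold change of −0.01 ± 0.22 SE and an interval from 0.713-fold to 1.38-fold (limma adjusted p = 0.994). PER3 averaged 467 ± 72.1 normalized counts with FBSA and 469 ± 61.8 in control (SD, n = 3 each), and its interval ran from 0.773-fold to 1.28-fold. The unadjusted intervals of PER1 (ENSDARG00000012499), PER2 and PER3 thus leave out a 1.5-fold difference in either direction.

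The second PER1 identifier, ENSDARG00000056885, was far less abundant, and ENSDARG00000012499 held 73.6 times its mean level. It had 22.5, 34.7 and 22.4 normalized counts in the FBSA libraries, against 15.1, 1.19 and 17.0 in the controls. The groups did not overlap, but the value in control replicate 2 was a single read. The log2 fold change of 1.65 ± 0.79 SE (limma adjusted p = 0.382) was 0.66 without that library.

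Some cryptochromes repress CLOCK and BMAL, and the family also holds light-driven DNA repair enzymes. cry3a (ENSDARG00000069074) was the most abundant, with 1160, 1171 and 1396 normalized counts in the FBSA libraries, against 1252, 1108 and 1428 in the controls. The groups overlapped almost wholly, and the log2 fold change was −0.02 ± 0.13 SE (limma adjusted p = 0.963), with an interval from 0.807-fold to 1.20-fold. Its paralogue cry3b (ENSDARG00000091131) had 140, 228 and 204 normalized counts with FBSA, against 314, 267 and 249 in control. Each FBSA library lay under each control, most so FBSA replicate 1, but the difference did not pass (log2 fold change −0.56 ± 0.22 SE, limma adjusted p = 0.282). Without FBSA replicate 1 the log2 fold change was −0.35, and on the deposited log2 values it was −0.34. The ratio of cry3a to cry3b was 8.27, 5.13 and 6.84 in the FBSA libraries, against 3.98, 4.15 and 5.74 in the controls, and these ranges overlapped.

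CRY1 is the symbol of 2 identifiers of unequal level. ENSDARG00000045768 averaged 866 ± 160 normalized counts with FBSA and 917 ± 101 in control (SD, n = 3 each), with overlapping groups. ENSDARG00000011583 had 77.9, 121 and 83.3 with FBSA, against 68.8, 41.5 and 70.4 in control. Here the groups did not overlap, FBSA replicate 2 being highest and control replicate 2 lowest. Its log2 fold change was 0.65 ± 0.31 SE (limma adjusted p = 0.392), 0.40 without control replicate 2 and 0.21 without both libraries numbered 2. CRY2 averaged 396 ± 45.6 normalized counts with FBSA and 350 ± 91.5 in control, and cry4 217 ± 20.1 and 213 ± 10.0 (SD, n = 3 each). The gene cry5, which encodes the 6-4 photolyase that repairs ultraviolet damage, was uneven among FBSA libraries. It had 27.7 normalized counts in FBSA replicate 1 and 104 and 114 in the other two, against 72.1, 62.9 and 97.7 in control.

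All 4 genes of the DEC and CHRONO group, which encode further repressors of CLOCK and BMAL, had positive log2 fold changes, and 0 of 4 passed. Over all genes 49.8% were positive. The value was 0.29 ± 0.30 SE for BHLHE41 and only 0.02 ± 0.31 SE for ciartb. BHLHE40 (ENSDARG00000004060), encoding the repressor DEC1, had 681, 1013 and 867 normalized counts in the FBSA libraries, against 663, 376 and 672 in the controls. The groups only just failed to overlap, since FBSA replicate 1 stood beside control replicates 1 and 3, while control replicate 2 was low. BHLHE40 had a log2 fold change of 0.61 ± 0.22 SE (limma adjusted p = 0.255), which was 0.34 without control replicate 2 and 0.20 without both libraries numbered 2. ciarta (ENSDARG00000058094), one of the genes for the repressor CHRONO, had 1034, 1110 and 921 with FBSA, against 991, 789 and 879 in control. The groups overlapped, and the log2 fold change was 0.21 ± 0.13 SE (limma adjusted p = 0.532). It was 0.13 without control replicate 2 and 0.064 without both libraries numbered 2. BHLHE41 averaged 98.8 ± 26.7 normalized counts with FBSA and 79.8 ± 18.5 in control, and ciartb 96.4 ± 26.5 and 96.0 ± 29.3 (SD, n = 3 each).

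**Figure D2:**
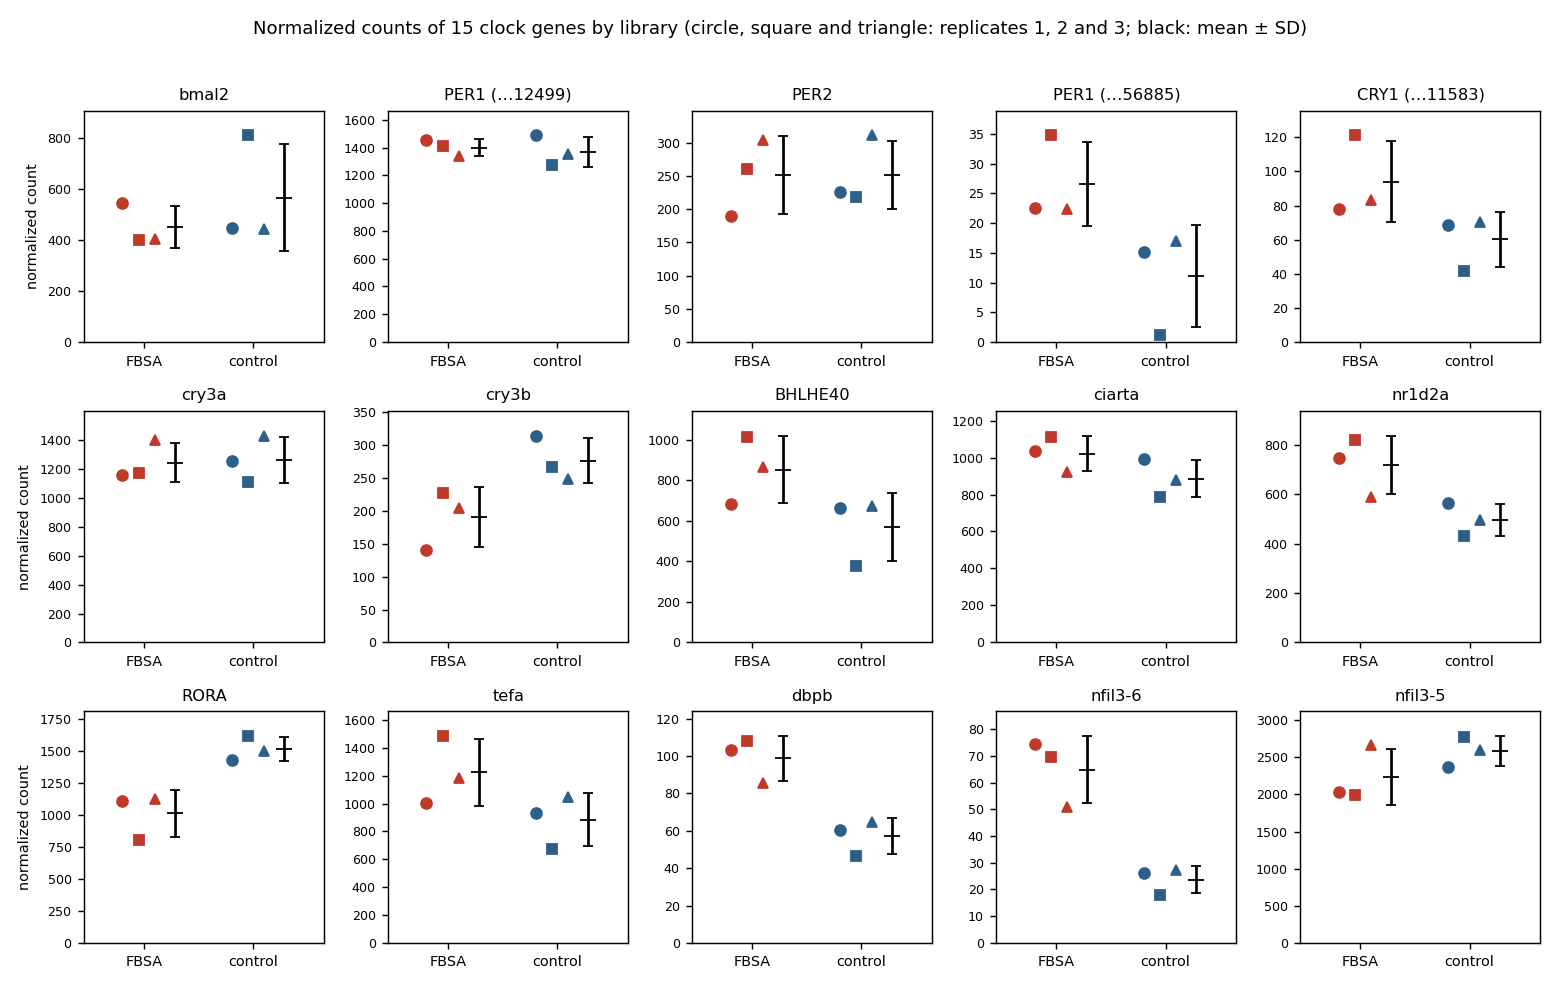
Normalized counts of 15 clock genes in each of the 3 FBSA and 3 control libraries, with mean and SD in black and each vertical axis starting at 0. RORA and cry3b lie lower in every FBSA library and nfil3-6, dbpb and nr1d2a higher, whereas PER1 (ENSDARG00000012499), PER2 and cry3a overlap.

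Among the orphan receptors, the most abundant REV-ERB gene and the most abundant ROR gene had values that differed in opposite directions, neither past the threshold. RORA (ENSDARG00000031768), an activator of BMAL genes that in mice is also needed by cerebellar Purkinje neurons, had 1108, 804 and 1130 normalized counts in the FBSA libraries, against 1432, 1618 and 1499 in the controls. Every FBSA library lay under every control, with FBSA replicate 2 lowest and control replicate 2 highest. The log2 fold change was −0.59 ± 0.14 SE, or 1.51-fold lower, with an interval from 0.533-fold to 0.822-fold of control (limma adjusted p = 0.0968). Across the alternatives this adjusted p ran from 0.0696 to 0.312 and the log2 fold change from −0.68 to −0.39. Its paralogue rorab averaged 327 ± 68.2 normalized counts with FBSA and 321 ± 60.4 in control (SD, n = 3 each), with overlapping groups.

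The summed level of neuron and brain markers was also lower in each FBSA library. It was 59542, 47195 and 56591 normalized counts in the FBSA libraries, against 64388, 73003 and 68603 in the controls. FBSA replicate 2 was lowest, as it was for 22.2% of all genes, and control replicate 2 highest, as for 23.8% of all genes. Of 12 such genes tested, 1 fell, the neuronal gene ELAVL4 (log2 fold change −0.61, limma adjusted p = 0.0353), beside 0.136% of all genes. Of the 12, 0 rose, beside 0.568% of all genes, and none was at 0 in every library. Lower values at an unadjusted p under 0.05 were found for 8 of the 12, beside 6.25% of all genes. Higher values at that level were found for 1, beside 7.34% of all genes. This was the glial gene GFAP (log2 fold change 0.27, limma adjusted p = 0.275), whose groups did not overlap. Without overlap, 1 of the 12 was higher, beside 10.0% of all genes, and 4 were lower, beside 9.91%. Log2 fold changes were negative in 9 of the 12 and positive in 3, the largest at 1.03. The median log2 fold change of the 12 was −0.37. The sum over 19 retina and pineal photoreceptor markers was 2822, 1912 and 2942 with FBSA, against 3605, 3229 and 3119 in control. Most of each sum came from crx (ENSDARG00000011989) and CRX (ENSDARG00000043483), so it says little about the other markers. crx had 1514, 855 and 1419 with FBSA, against 1698, 1527 and 1507 in control, and its groups overlapped. CRX had 1076, 727 and 1095 with FBSA, against 1479, 1346 and 1180 in control, without overlap. It was the only 1 of 11 tested genes of this list without overlap, beside 9.91% of all genes that were lower without overlap. Of the 19 genes 11 were tested, 9 with negative and 2 with positive log2 fold changes, and 0 passed. Of 14 skeletal muscle genes tested 3 fell, all ACTA1 or TNNI2 copies, beside 0.136% of all genes. The other 3 TNNI2 copies tested did not pass, with log2 fold changes of 0.75 for ENSDARG00000035958, −0.09 for the abundant ENSDARG00000029069 and −2.38 for ENSDARG00000005841. Groups did not overlap in ENSDARG00000035958 and ENSDARG00000005841. Of all 14 muscle genes, 6 were lower with FBSA without overlap, beside 9.91% of all genes, and 1 was higher, beside 10.0%. The summed muscle level overlapped between groups. Lower values at an unadjusted p under 0.05 were found for 6 of the 14 muscle genes, beside 6.25% of all genes. Higher values at that level were found for 1, beside 7.34% of all genes. Log2 fold changes were negative in 11 of the 14 and positive in 3. The neuron list was thus not alone in holding many lower values. Of 8 liver and yolk genes and 8 genes of blood, lens and skin, 0 passed. Log2 fold changes were positive in 6 of the 8 liver and yolk genes and in 3 of the 8 others. Without overlap, 3 liver and yolk genes and 2 of the others were higher with FBSA, beside 10.0% of all genes, and 0 were lower. The part of these cell types in the values of RORA and cry3b was not tested. In whole embryos, fewer cells of a type and less RNA per cell cannot be told apart.

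nr1d2a (ENSDARG00000003820), a REV-ERB gene whose product represses BMAL genes, had 746, 822 and 591 normalized counts in the FBSA libraries, against 563, 433 and 496 in the controls. The groups did not overlap, although FBSA replicate 3 was near control replicate 1. Its log2 fold change was 0.53 ± 0.16 SE (limma adjusted p = 0.184), and 0.33 without both libraries numbered 2. The related NR1D2 (ENSDARG00000009594) had 102, 207 and 138 normalized counts with FBSA, against 217, 161 and 108 in control, a wide overlap. NR1D1, the REV-ERB gene best known from mammalian clocks, was barely detected, at 3.05 to 6.93 normalized counts in FBSA libraries and 1.14 to 6.71 in controls, and was not tested. Also under the filter were nr1d4a, at 0 in FBSA replicates 1 and 2 and control replicate 2, and rorca, at most 2.82 in any FBSA library and 2.37 in any control. The remaining receptors rorcb and nr1d4b had overlapping groups, with means of 138 ± 34.2 and 9.87 ± 8.07 normalized counts with FBSA, against 133 ± 30.2 and 13.8 ± 8.57 in control (SD, n = 3 each).

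Of 8 D-box genes tested, 3 were among the 7 clock genes with an unadjusted p under 0.05. All 3 were higher with FBSA, or 37.5% of the 8, beside 7.34% of all genes. Without both libraries numbered 2, only nfil3-6 of the 3 was still at that level, beside 11.3% of all genes in either direction. Log2 fold changes were positive in 5 of the 8 and negative in 3. nfil3-6 (ENSDARG00000087188), of the family of the D-box repressor NFIL3, had the largest difference of the 7. It had 74.5, 69.5 and 50.8 normalized counts in the FBSA libraries, against 26.0, 17.8 and 27.3 in the controls. The lowest FBSA value was well above the highest control. This was a log2 fold change of 1.42 ± 0.37 SE, or 2.68-fold, with an interval from 1.53-fold to 4.67-fold (limma adjusted p = 0.123). Leaving out each library in turn gave 1.24 to 1.59, leaving out both numbered 2 gave 1.18, and the deposited log2 values, which compress differences at low counts, gave 0.45. The adjusted p over all alternatives ran from 0.108 to 0.413. The ratio of nfil3-5 to nfil3-6 was 27.3, 28.7 and 52.5 in the FBSA libraries, against 91.4, 156 and 95.4 in the controls. These ranges did not overlap, but the ratio uses the nfil3-6 values above and is not a separate result.

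nfil3-5 (ENSDARG00000094965) was the most abundant clock gene, with 2035, 1994 and 2667 normalized counts with FBSA, against 2375, 2776 and 2600 in control. FBSA replicates 1 and 2 lay under all controls and FBSA replicate 3 among them (log2 fold change −0.22 ± 0.13 SE, limma adjusted p = 0.485). NFIL3 itself (ENSDARG00000042977) had 871, 978 and 1191 normalized counts with FBSA, against 838, 1065 and 815 in control, and the groups overlapped. These genes are related in sequence, and how reads that match several of them were counted is not given in the sources used.

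Of the activators at D-boxes, dbpb (ENSDARG00000057652) had 103, 108 and 85.4 normalized counts in the FBSA libraries, against 60.4, 46.3 and 64.7 in the controls. Each FBSA library stood above each control, and the log2 fold change was 0.79 ± 0.28 SE, or 1.73-fold (limma adjusted p = 0.240). On the deposited log2 values it was 0.33. Its paralogue dbpa had 146, 102 and 150 with FBSA, against 141, 205 and 139 in control, with overlapping groups. tefa (ENSDARG00000039117) had 1006, 1484 and 1182 normalized counts with FBSA, against 930, 677 and 1047 in control. These groups overlapped, with FBSA replicate 2 highest and control replicate 2 lowest. The log2 fold change of tefa was 0.47 ± 0.18 SE (limma adjusted p = 0.275), 0.29 without control replicate 2 and 0.14 without both libraries numbered 2. hlfa averaged 571 ± 100 normalized counts with FBSA and 596 ± 114 in control, and tefb 40.4 ± 3.79 and 41.3 ± 17.3 (SD, n = 3 each). HLF, at 0 reads in each FBSA library, which allows up to 3 reads per library by counting error alone, had 6.71, 0 and 1.14 normalized counts in control and was not tested.

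**Figure D3:**
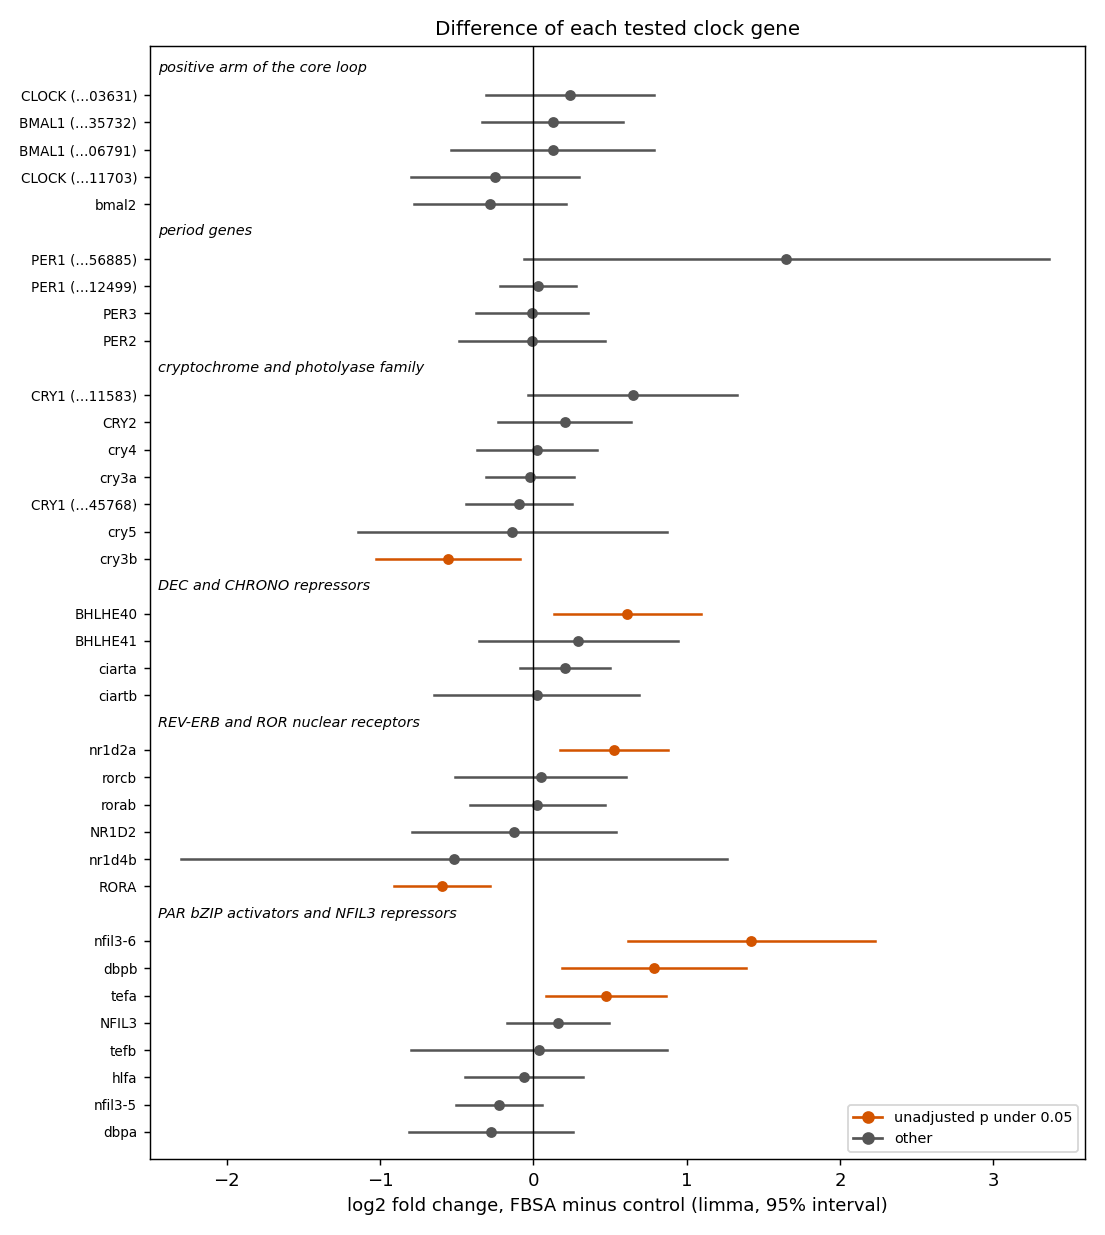
Log2 fold change of FBSA over control with its 95% limma interval for each of the 34 tested clock genes, by role, with the 7 genes at an unadjusted p under 0.05 in orange. Of these, nfil3-6 at 1.42 and RORA at −0.59 are the ends, and 0 of 34 genes passed after adjustment over all genes.

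The spread between pools of the same group was close to that of other genes. Over the 34 clock genes the median SD within groups was 0.29 on the log2 scale, and over all genes tested it was 0.28. PER1 (ENSDARG00000012499), cry4 and ciarta varied least, and cry5, nr1d4b and PER1 (ENSDARG00000056885) most, at 0.82, 1.09 and 1.24. Libraries numbered 2 held many of the extremes. FBSA replicate 2 was the highest library for 11 clock genes, or 32.4%, beside 21.7% of all genes, and control replicate 2 was the lowest for 15, or 44.1%, beside 23.9% of all genes. The median deviation of the clock genes from the control mean was 0.01, 0.23 and 0.11 in FBSA replicates 1, 2 and 3, against 0.09, −0.10 and 0.01 in control replicates 1, 2 and 3, so the groups overlapped.

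**Figure D4:**
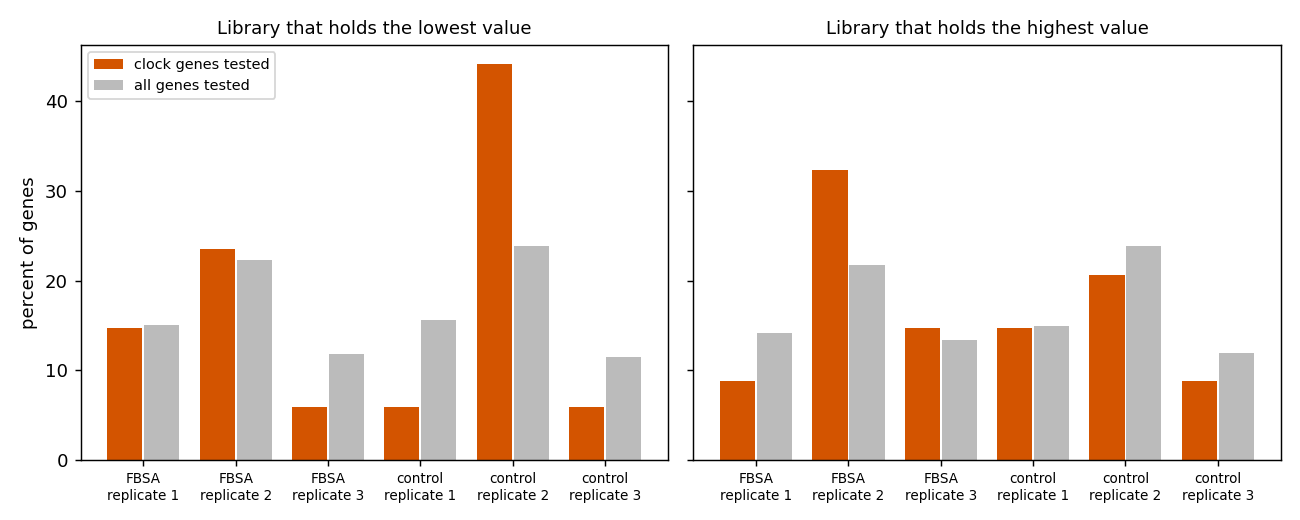
Percent of the 34 clock genes and of all 16890 genes tested whose lowest value (left) or highest value (right) fell in each library, with bars from 0. FBSA replicate 2 was highest for 32.4% of clock genes, beside 21.7% of all genes, and control replicate 2 lowest for 44.1%, beside 23.9%.

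Genes around the clock loop were also read from the fit over all genes, and 0 members of these lists passed. Of 9 tested genes for clock protein kinases and ubiquitin ligases, the lowest unadjusted p-values were those of GSK3B, a kinase that acts on several clock proteins, and csnk1e, a casein kinase that phosphorylates period proteins. GSK3B had 2353, 2133 and 2397 normalized counts in the FBSA libraries, against 2705, 3097 and 2593 in the controls, a log2 fold change of −0.28 ± 0.11 SE (limma adjusted p = 0.281). csnk1e had 296, 255 and 365 with FBSA, against 367, 420 and 396 in control (limma adjusted p = 0.363). In both genes the groups did not overlap, though csnk1e was apart by little (365 against 367). These were 2 of the 9 genes, beside 19.9% of all genes without overlap in either direction and 9.91% lower. The median log2 fold changes were −0.02 for this list, 0.08 for 8 other clock regulators such as TIMELESS, and 0.17 for 5 DNA repair genes known as light-induced in fish cells. For 4 cell cycle and metabolic outputs the median was 0.51, beside −0.00090 over all genes. All 4 had overlapping groups, and the smallest limma adjusted p was 0.533. Their log2 fold changes ran from 0.22 for WEE1 to 0.79 for cdkn1a, with a log2 interval from −0.69 to 2.27 for cdkn1a. The 3 non-visual opsins tested went both ways, with log2 fold changes of −1.22 for tmtops2a, −0.54 for tmtops2b and 1.57 for OPN4 (ENSDARG00000053929). OPN4 had 12.1, 11.3 and 10.2 normalized counts with FBSA, against 2.52, 1.19 and 7.95 in control. It met the filter of 10 normalized counts in 3 libraries only through the FBSA libraries, so its lack of overlap followed from the filter.

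The melatonin pathway, a nightly output of the pineal clock, held higher and lower values. aanat2, which encodes the pineal enzyme that sets the rhythm of melatonin synthesis, had 18.2, 6.57 and 46.7 normalized counts in the FBSA libraries, against 44.4, 52.2 and 55.6 in the controls. FBSA replicate 3 lay among the controls, and FBSA replicate 2 was lowest, as it was for 22.2% of all genes. The part of pineal and photoreceptor cells in these values was not tested. The difference did not pass (log2 fold change −1.43 ± 0.58 SE, limma adjusted p = 0.302). TPH1 (ENSDARG00000036082), for the enzyme that begins serotonin synthesis, had 72.7, 160 and 47.8 normalized counts with FBSA, against 24.3, 26.1 and 25.0 in control. All FBSA values were higher, most so in FBSA replicate 2, with a log2 fold change of 1.67 ± 0.43 SE (limma adjusted p = 0.115). The other 4 tested genes of this list had unadjusted p-values above 0.05. Of the 6 genes tested, 2 were higher with FBSA without overlap, beside 10.0% of all genes. These were TPH1 (ENSDARG00000036082) and asmt2, the latter apart by little (63.2 against 62.0).

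Among 5 glucocorticoid-responsive genes tested, a class that in mammals includes period genes, 4 had positive log2 fold changes, beside 49.8% of all genes. FKBP5 had 167, 239 and 166 normalized counts in the FBSA libraries, against 152, 75.9 and 55.6 in the controls (log2 fold change 1.11 ± 0.33 SE, limma adjusted p = 0.174). sgk1 had 520, 617 and 738 with FBSA, against 356, 401 and 511 in control (log2 fold change 0.57 ± 0.18 SE, limma adjusted p = 0.193). In both genes the groups did not overlap, only narrowly in FKBP5 (166 against 152), and neither passed. These were 2 of the 5 genes tested, beside 10.0% of all genes that were higher with FBSA without overlap. The median of the list was 0.57, which is the value of sgk1 itself, beside −0.00090 over all genes.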

How the data were processed

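Libraries were made with the Lexogen QuantSeq 3′ FWD kit, per the labels' protocols. STAR, HTSeq, DESeq2 and the build GRCz11 are named in the submitters' processing notes; annotation, filters and strand setting are not stated there. The authors deposited log2 values for 24462 genes, with 6 header names for 7 columns, so each name was moved 1 cell to the right. All columns share the lowest value 6.52, and the values follow the variance-stabilising formula. Inverting that formula returned reads: 100.0% of values over the lowest were whole to within 0.1. Simulated reads were used to test this step. Reads were divided by median-of-ratios size factors. The planned design allowed for either scale.

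Genes with at least 10 normalized counts in 3 libraries (16890) were tested on log2(normalized count + 1) by a two-sided limma-trend test (limma 3.58.1, R 4.3.3) with group as the only term. P-values were adjusted by Benjamini-Hochberg over all of them, with a threshold of 0.05. Fits were tested on simulated data, where 32.8% of genes changed 1.5-fold and 63.3% of those changed 2-fold passed the threshold. Python 3.11.15 with pandas 2.3.3 was used otherwise. Symbols came from a table that matched 22817 identifiers.

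Members, lists and tests were chosen with earlier results of these data known. Values in all libraries are given for members with an unadjusted p under 0.05 and the most abundant member of each role; PER1 (ENSDARG00000056885), CRY1 (ENSDARG00000011583), PER2 and other members given by library were added after values were seen. From each other list, members past the threshold, or otherwise those with the lowest unadjusted p, could be named. Markers matched by a capital stem can add paralogues. The limit given for 0 reads covers counting error only, since no molecular identifiers are mentioned in the labels. Alternatives covered the pseudocount, filter, scaling, replicate block, moderation, limma-voom, the deposited scale and libraries left out. Promoter and protein sequences were not used here.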

Additional observations from a re-analysis of the deposited data

How the results depend on the processing

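In all 17 alternatives 0 clock genes passed the threshold, the smallest adjusted p being 0.0696 with robust moderation. The genes at an unadjusted p under 0.05 numbered 5 to 8 with 1 library left out, beside 8.85% to 14.5% of all genes. Without both libraries numbered 2, an alternative chosen after seeing the data, they numbered 3, beside 11.3% of all genes. The median log2 fold change of the 34 genes lay between −0.0021 with library total scaling and 0.12 without FBSA replicate 1. Signs changed for 2 to 7 of the 34 genes with 1 library left out, 10 without both libraries numbered 2, 3 with library total scaling and 2 with limma-voom. Leaving out 1 library at a time, the log2 fold change ran from −0.43 to 0.0059 for bmal2, from −0.020 to 0.092 for PER1 (ENSDARG00000012499), from −0.16 to 0.18 for PER2 and from −0.11 to 0.072 for cry3a. Without both libraries numbered 2 it was 0.082 for bmal2 and −0.026 for PER1 (ENSDARG00000012499). The cause was not tested.

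Over all genes, 119 passed (96 higher, 23 lower). With 1 library left out the number was 53 to 102, with 46 to 87 higher and 4 to 23 lower. Without both libraries numbered 2 it was 138, with 106 higher and 32 lower. Same-numbered libraries did not deviate together (correlations 0.021, −0.14 and −0.0046), so the numbers were not taken as pairs. With the replicate block 47 genes passed (40 higher, 7 lower), among them 0 clock genes. The filter on low counts left out NR1D1, npas2, nr1d4a, rorca and HLF, and no test is given for these 5 genes.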
